A study of Saccharomyces cerevisiae with 12 samples.

Results

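This comparison sets 3 WT cultures of budding yeast (Saccharomyces cerevisiae) grown in sucrose against 3 WT cultures grown in YPD, a rich medium with glucose, and covers every gene of the deposited count table. The 6 samples are those titled WT in either carbon source, out of 12 samples in all. The other 6 carry the genotype Rpd3-2SA, with 3 samples in sucrose and 3 in glucose, and they enter here as part of the estimate of spread and for a test of whether the WT response differed from theirs. All strains are labelled BY4741, a MATa laboratory strain of S288C background, cells were taken in mid-log growth, and total RNA was sequenced. The study asks what phosphorylation of Rpd3, a histone deacetylase, does to transcript levels in the 2 sugars; which residues 2SA stands for, how that strain was made, the sucrose concentration and the base medium are not given in the labels.

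Yeast does not import much sucrose as such. The secreted invertase Suc2 splits it outside the cell into glucose and fructose, and hexose transporters of the HXT family take these up. High glucose shuts off SUC2, respiration, gluconeogenesis and the use of acetate, lactate and fatty acids through the repressor Mig1 and the kinase Snf1, while activators such as Cat8, Sip4, Adr1 and the Hap complex turn these genes on when glucose is scarce. Protein kinase A, in contrast, favours ribosome production and holds back the stress activators Msn2 and Msn4.

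The WT libraries held 21782060 to 23368754 counts. Expression is given in CPM, read counts set relative to the size of the library after TMM scaling, and log2 fold changes are WT sucrose over WT glucose. Library WT sucrose 2 stood apart from its group: over genes, its chi-square distance per degree of freedom was 568 to WT sucrose 1 and 651 to WT sucrose 3, against 185 between those 2. WT glucose 1 stood apart in some genes too, with HXT4 at 326 CPM against 35.5 and 23 CPM in the other glucose libraries. Of the markers of strain and mating type, LEU2 had 1 count and MET17 had 0 counts over all 12 libraries, and the a-specific genes MFA1 (7.51 to 31.8 CPM) and STE2 (93.5 to 277 CPM) were present. URA3 went against the label BY4741, which is known to lack it, at 233 to 521 CPM in all 12 libraries. HIS3, another marker set as absent or deleted in that strain, had 29.8 to 69.1 CPM. Among alpha-specific genes, SAG1 was present at 42.5 to 65.7 CPM and MF(ALPHA)2 at 3.38 to 6.92 CPM in all 12 libraries, while MF(ALPHA)1 was at 0 to 0.297 CPM. STE3, also alpha-specific, had 110 counts in WT sucrose 1 and 73 in WT glucose 1, against at most 6 in any other library; whether any of these touch the results was not tested.

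Cells in sucrose had more mRNA for the use of sucrose, acetate, lactate and fatty acids, for respiration and for the mitochondrial ribosome, and less for the glucose transporter Hxt1. In numbers, 177 genes were called higher in WT sucrose than in WT glucose, which is 2.91% of the 6085 genes tested, and 32 genes, or 0.526%, were called lower. A call needed a Benjamini-Hochberg adjusted p under 0.05 over all genes in edgeR's quasi-likelihood test and a fold over 1.5. The median log2 fold change was 0.88 among genes called higher and -1.01 among genes called lower, and 25 and 3 genes passed a fold of 4. In all 177 and all 32 of these genes the 3 sucrose values lay to one side of the 3 glucose values. Such a separation was common: it was found for 14.2% of all genes tested upwards and for 12.1% downwards. In cultures, a change in all cells and a change in the share of cells that make a transcript cannot be told apart.

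The number of calls depended on the libraries and on the estimate of spread. With the 6 WT libraries alone the same test called 9 genes higher and 1 lower, and all 10 of these were among the calls of the fit with 12 libraries. DESeq2 called 341 higher and 193 lower, so that the share of calls that were higher, 84.7% in edgeR, was smaller. Without WT glucose 2 there were 10 higher and 2 lower, without WT glucose 3 there were 20 and 1, and without WT glucose 1 there were 64 and 4. Without WT sucrose 1 there were 57 and 2, without WT sucrose 2 there were 100 and 9, and without WT sucrose 3 there were 256 and 170. Leaving out 1 Rpd3-2SA library gave 116 to 194 higher and 10 to 40 lower. Without WT sucrose 2, 91 of the 177 and 4 of the 32 were still called. Whichever of the 12 libraries was left out, 10 genes were called: CRC1, RDL1, FMP48, ODC1, PET9, YBR053C, REE1, DOG2, MIC19 and CYC3. Of the 50 called genes that the naming rule picked, 48 lost their call without WT glucose 2, 46 without WT glucose 3, 33 without WT sucrose 1, 32 without WT glucose 1, 26 without WT sucrose 2 and 0 without WT sucrose 3, and none changed direction. SUC2 and JEN1 each lost theirs in 2 of the 12 fits, with a highest adjusted p of 0.0755 for SUC2 and 0.0614 for JEN1.

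**Figure D1:**
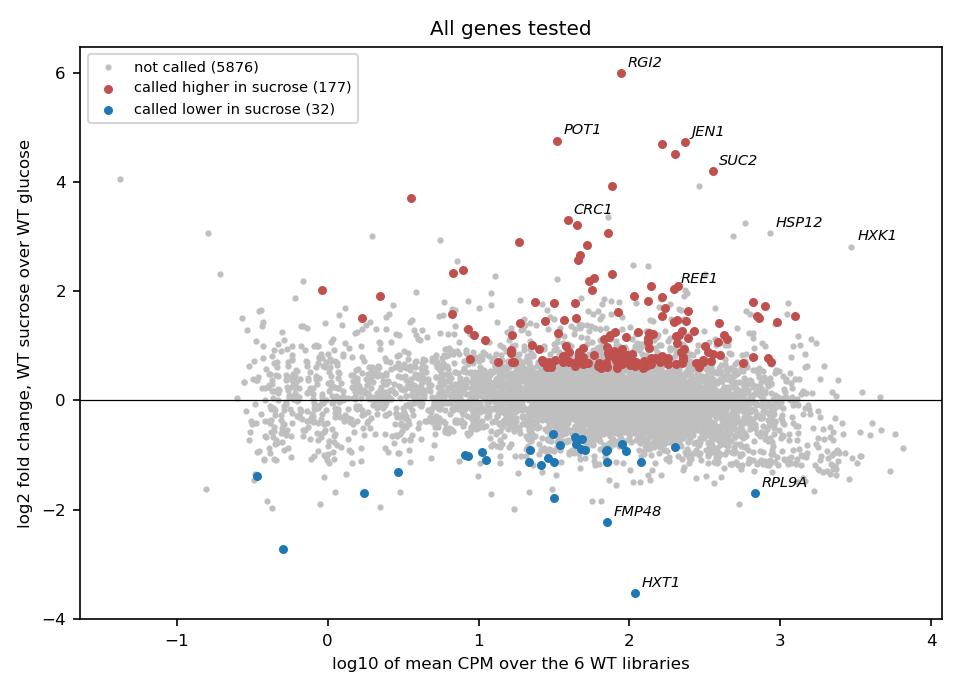
Log2 fold change of WT sucrose over WT glucose for each of the 6085 genes tested, against the log10 of the mean CPM over the 6 WT libraries. The 177 genes called higher reach a log2 fold change of 6.0 (RGI2) and the 32 called lower reach -3.53 (HXT1); HXK1 and HSP12 lie high but were not called.

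SUC2 encodes invertase, the enzyme that splits sucrose, and lies on chromosome IX at 37385 to 38983 (sacCer3, plus strand). It had 291, 1067 and 672 CPM in WT sucrose, against 58.7, 22.1 and 29.4 CPM in WT glucose. The lowest sucrose library was well above the highest glucose library. Its log2 fold change was 4.2 ± 0.67 (SE; edgeR adjusted p = 0.0114), and 3.71 without WT sucrose 2 (adjusted p = 0.0237). The distal 300 of the 600 bases before its start codon (chrIX:36785-37084, plus strand, from the R64 reference) are printed because the repressor Mig1 is known to act on it. Capitals mark every match to the Mig1 core on either strand, that is GCGGGG or the variant CCGGGG, and GTGGGG or the variant CTGGGG. These start at bases -499, -439 and -405 relative to the start codon.
SUC2 upstream: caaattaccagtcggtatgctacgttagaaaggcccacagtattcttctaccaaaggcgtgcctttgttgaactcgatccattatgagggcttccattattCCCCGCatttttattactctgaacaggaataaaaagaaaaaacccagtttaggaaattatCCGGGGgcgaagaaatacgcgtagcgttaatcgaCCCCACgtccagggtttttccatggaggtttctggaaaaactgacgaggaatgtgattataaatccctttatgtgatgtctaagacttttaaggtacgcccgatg

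The Mig1 core letters were found in the 600 bases before the start codon of 39% of the 172 protein-coding genes called higher, of 22.6% of the 31 called lower and of 27.7% of all 5753 tested genes with such a window. MAL32, which encodes a maltase that can also split sucrose inside the cell, had 11.4, 14.6 and 7.88 CPM in WT sucrose, against 4.04, 1.02 and 1.65 CPM in WT glucose. All sucrose values were above all glucose values, and its log2 fold change was 2.33 ± 0.52 (SE; edgeR adjusted p = 0.0331, and adjusted p = 0.08 without WT sucrose 2). Without WT glucose 1 its log2 fold change was 3.07 (adjusted p = 0.0371). MAL32 is nearly identical to MAL12, so its reads are uncertain. SUC2 and MAL32 were the 2 of 12 members, or 16.7% against 2.91% of all genes tested, called higher in the list of sucrose and alpha-glucoside genes, and none was called lower. MAL11, the transporter that carries alpha-glucosides into the cell, had 16.5, 61.1 and 11.3 CPM in WT sucrose, against 33.6, 15 and 17 CPM in WT glucose. Its groups overlapped, and 1 library, WT sucrose 2, held the highest value.

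The hexose transporters did not move as a block. HXT1, the low-affinity carrier that yeast makes in high glucose, had 11.2, 6.43 and 34.5 CPM in WT sucrose, against 121, 194 and 288 CPM in WT glucose. The highest sucrose value was below the lowest glucose value, and HXT1 fell by 3.53 on the log2 scale (SE 0.83; edgeR adjusted p = 0.0413). Its adjusted p was 0.117 without WT sucrose 2, and its log2 fold change was -4.54 without WT sucrose 3 (adjusted p = 0.0246). HXT1 lost its call in 8 of the 12 fits that left out 1 library (highest edgeR adjusted p 0.128). HXT3, another low-affinity carrier, had 102, 339 and 232 CPM in WT sucrose, against 1086, 894 and 528 CPM in WT glucose, with a log2 fold change of -1.90 and an edgeR adjusted p of 0.0552. Its groups did not overlap, but it was not called. The high-affinity carrier gene HXT7 had 170, 807 and 108 CPM in WT sucrose, against 192, 63.5 and 32.7 CPM in WT glucose, so its groups overlapped. HXT4 had 56.2, 234 and 281 CPM in WT sucrose, against 326, 35.5 and 23 CPM in WT glucose. Members of this family share reads with near copies, which leaves their separate values uncertain. Of the 17 transporters and glucose sensors tested, 1 was called lower, or 5.88% against 0.526% of all genes tested. None was called higher, against 2.91% of all genes. The median log2 fold change was 0.45, and 0.21 without WT sucrose 2.

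None of the 27 regulators of glucose signalling and repression tested was called by edgeR at the adjusted p and fold thresholds. Over all genes tested, 2.91% were called higher and 0.526% lower, and at these shares a list of 27 can hold 0 calls. The median log2 fold change of the 27 regulators was 0.09. DESeq2 called 2 of them higher and 1 lower, against 341 and 193 of the 6789 genes it tested. Without WT sucrose 2, edgeR called 2 of the regulators lower. SIP4, an activator of gluconeogenic genes, had 14.6, 9.81 and 6.07 CPM in WT sucrose, against 4.09, 2.38 and 3.12 CPM in WT glucose (log2 1.67, edgeR adjusted p = 0.0651). MIG2, a partner of Mig1 in repression, had 73, 110 and 36.2 CPM in WT sucrose, against 140, 279 and 179 CPM in WT glucose (log2 -1.45, adjusted p = 0.0654). Both pairs of groups stood apart without a call. The activator gene ADR1 had 80.1, 382 and 79.4 CPM in WT sucrose, against 53.4, 25 and 18.1 CPM in WT glucose, with a log2 fold change of 2.49 (adjusted p = 0.0918) that was 1.30 without WT sucrose 2. MIG1, CAT8, MTH1, SNF3 and RGT2 had log2 fold changes from -0.31 to 0.65 with overlapping groups, and HAP4 had -0.22. Among the hexose kinases, HXK1 had 3011, 9257 and 3327 CPM in WT sucrose, against 1513, 446 and 244 CPM in WT glucose. It was the most abundant gene of those named here in sucrose, and its log2 fold change of 2.82 had an adjusted p of 0.0917. GLK1 (log2 1.58) and HXK2 (log2 0.32) were not called either.

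The highest median among the lists was that of gluconeogenesis, the glyoxylate cycle and the use of acetate and lactate, where 10 of 23 genes rose, or 43.5% against 2.91% of all genes tested, none fell and the median log2 fold change was 1.51, against 0.04 over all genes tested. Without WT sucrose 2, 7 members were called, and with the 6 WT libraries alone 3 were. JEN1, the carrier of lactate and pyruvate, had 677, 506 and 172 CPM in WT sucrose, against 24.4, 11.1 and 15.5 CPM in WT glucose. ADY2, an acetate transporter, had 524, 502 and 127 CPM in WT sucrose, against 20.7, 16.2 and 13.7 CPM in WT glucose. In both genes WT sucrose 3 was the lowest sucrose library and still far above every glucose library. JEN1 rose by 4.73 ± 0.71 on the log2 scale (SE; edgeR adjusted p = 0.0102) and ADY2 by 4.51 ± 0.83 (adjusted p = 0.0213).

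CRC1 (chromosome XV, 513295 to 514278, minus strand), the carrier that brings acetylcarnitine into mitochondria, had 75.2, 83.3 and 53.5 CPM in WT sucrose, against 6.04, 6.86 and 8.61 CPM in WT glucose. Its replicates lay close together, and its log2 fold change of 3.30 ± 0.35 (SE; edgeR adjusted p = 0.00239) stayed between 3.15 and 3.45 when any 1 of the 12 libraries was left out. The carnitine acetyltransferase genes CAT2 (log2 2.66, and 2.07 with an edgeR adjusted p of 0.0591 without WT sucrose 2) and YAT2 (log2 1.79) rose too. ADH2, the alcohol dehydrogenase that consumes ethanol, had 308, 60.4 and 66.3 CPM in WT sucrose, against 5.81, 11.1 and 11.5 CPM in WT glucose (log2 3.93 ± 0.69, adjusted p = 0.0182). Without WT sucrose 1, its high library, the log2 fold change was 2.74 (adjusted p = 0.0317). ADH2 has a near copy in ADH1. Further along the path from ethanol and acetate, ALD4 (log2 1.81) and ACS1 (log2 2.03) rose, as did the pyruvate carboxylase gene PYC1 (log2 1.51), which has a near copy in PYC2.

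PCK1, the first enzyme particular to gluconeogenesis, had 64.8, 16 and 17.9 CPM in WT sucrose, against 5.04, 4.28 and 3.75 CPM in WT glucose. It rose by 2.91 ± 0.54 on the log2 scale (SE; edgeR adjusted p = 0.0213), and WT sucrose 1 was the high library. Without that library the log2 fold change was 1.96 (adjusted p = 0.0347), and the call was lost without any 1 of the 3 WT glucose libraries (adjusted p 0.0591 to 0.0959). FBP1, which encodes the later gluconeogenic enzyme fructose-1,6-bisphosphatase, had 8.36, 15.2 and 8.75 CPM in WT sucrose, against 6.4, 3.84 and 6.65 CPM in WT glucose, and was not called (adjusted p = 0.131). ICL1, the isocitrate lyase of the glyoxylate cycle, had 48.2, 45.8 and 21.8 CPM in WT sucrose, against 29.6, 17.1 and 17.2 CPM in WT glucose, with overlapping groups. The distal 300 of the 600 bases before the PCK1 start codon (chrXI:630552-630851, plus strand, R64 reference) are printed because the activators Cat8 and Sip4 are known to bind such elements. Capitals mark the matches to CCNNNNNNCCG on either strand, a pattern added after values had been seen.
PCK1 upstream: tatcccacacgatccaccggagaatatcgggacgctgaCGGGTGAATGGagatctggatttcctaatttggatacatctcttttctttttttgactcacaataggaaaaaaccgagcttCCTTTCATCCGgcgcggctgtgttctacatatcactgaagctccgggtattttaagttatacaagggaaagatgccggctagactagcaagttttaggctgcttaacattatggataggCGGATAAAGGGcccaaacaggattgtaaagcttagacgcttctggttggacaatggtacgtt

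The CCNNNNNNCCG letters were found upstream of 69.6% of the 23 genes of the gluconeogenesis list, of 34.9% of the genes called higher and of 24.6% of all tested genes. The Mig1 core letters were also upstream of 69.6% of that list. The CCNNNNNNCCG letters were also upstream of 25.8% of genes called lower and of 37% of the 138 cytosolic ribosomal protein genes. The Adr1 letters TTGGGG were upstream of 22.7% of genes called higher, 6.45% of genes called lower and 12.2% of all tested genes. The CCAAT letters of the Hap complex were upstream of 70.9% of genes called higher, 93.5% of genes called lower and 70.4% of all tested genes. These letters are short and a match is not a site in use.

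**Figure D2:**
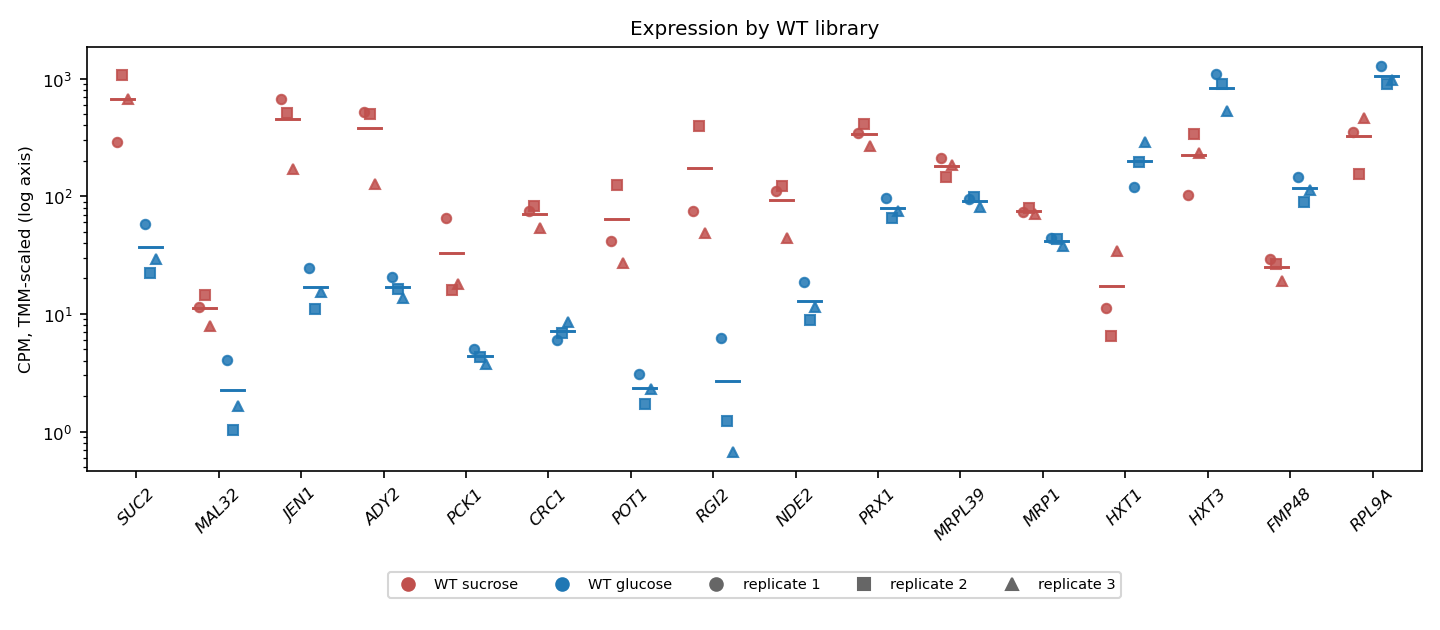
CPM (log axis) of 16 genes in each WT library, sucrose left and glucose right within each gene, with symbols for the replicate and a bar at the mean of 3. For JEN1, ADY2, CRC1 and POT1 every sucrose library lies far above every glucose library; for HXT1, FMP48 and RPL9A every sucrose library lies below.

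Peroxisomal oxidation of fatty acids followed the same direction, with 5 of 17 genes higher, or 29.4% against 2.91% of all genes tested, 0 lower and a median log2 fold change of 0.95. POT1, the last enzyme of the oxidation cycle, had 41.6, 124 and 27 CPM in WT sucrose, against 3.09, 1.7 and 2.28 CPM in WT glucose (log2 4.76 ± 0.84, edgeR adjusted p = 0.0182). POX1, the first enzyme of the cycle, had 71.2, 141 and 33.4 CPM in WT sucrose, against 9.08, 8.56 and 8.74 CPM in WT glucose (log2 3.22 ± 0.65, adjusted p = 0.0231). WT sucrose 2 was the highest library for both. Without it POT1 had a log2 fold change of 3.85 and kept its call (adjusted p = 0.0315), and POX1 had 2.56 and did not (adjusted p = 0.0565). ECI1, MDH3 and IDP3, which serve unsaturated chains and the redox balance inside peroxisomes, had log2 fold changes of 1.83, 0.88 and 0.95. ECI1 and IDP3 lost their calls in 5 and 9 of the 12 fits that left out 1 library. Without WT sucrose 2, 2 members of the list were called.

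All 37 nuclear genes tested for the respiratory chain and ATP synthase had a log2 fold change above 0, with a median of 0.97. Of all 6085 genes tested, 3324 had a log2 fold change above 0. In 24 of the 37, or 64.9%, the groups stood apart upwards, against 14.2% of all genes. Of the 37, 5, or 13.5%, were called higher, against 2.91% of all genes, and 0 lower. NDE2, an NADH dehydrogenase facing the cytosol, had 111, 123 and 43.8 CPM in WT sucrose, against 18.6, 8.8 and 11.4 CPM in WT glucose, and rose by 2.84 ± 0.55 on the log2 scale (SE; edgeR adjusted p = 0.0222, and 0.0504 without WT sucrose 2). The ATP synthase subunit genes ATP2, ATP5, ATP15 and ATP17 rose by 1.08, 0.81, 1.10 and 1.12. ATP15 was the tightest of these, with 14.4, 15.6 and 15.5 CPM in WT sucrose, against 7.81, 5.59 and 7.72 CPM in WT glucose. The median of the list was 0.63 without WT sucrose 2, when 2 members were called. In the tricarboxylic acid cycle 3 of 17 genes, or 17.6% against 2.91% of all genes tested, were called higher and 0 lower. They were both succinyl-CoA ligase subunits, LSC1 (log2 0.83 ± 0.15, adjusted p = 0.0196) and LSC2 (log2 1.20 ± 0.18, adjusted p = 0.0102), and CIT3, a minor mitochondrial citrate synthase (log2 1.80 ± 0.39, adjusted p = 0.0319). CIT3 lost its call in 8 of the 12 fits that left out 1 library, LSC1 in 4 and LSC2 in 2.

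The genes of the mitochondrial ribosome gave the largest number of calls of any list. Of 79 nuclear genes whose RefSeq product is a mitochondrial ribosomal protein, 36 were called higher and 0 lower, 45.6% against 2.91% of all genes tested. All 79 had a log2 fold change above 0, against 3324 of all 6085 genes tested. The values ran from 0.15 (MRPL38) to 0.99 (MRPL6), with quartiles at 0.57 and 0.72. The groups stood apart upwards in 73, or 92.4%, against 14.2% of all genes. Together these mRNAs made up 1.27, 1.24 and 1.18% of counts in WT sucrose, against 0.74, 0.72 and 0.672% in WT glucose. WT sucrose 2 did not stand out here: the median log2 fold change was 0.66 with it and without it, although 21 genes were called without it. With the 6 WT libraries alone 0 were called by edgeR. DESeq2 on the 12 called 44 of the list higher, against 341 of the 6789 genes it tested.

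MRPL39, a protein of the large mitochondrial subunit, had 210, 146 and 184 CPM in WT sucrose, against 95.6, 98.4 and 80.8 CPM in WT glucose (log2 0.97 ± 0.17, edgeR adjusted p = 0.0171). MRP1, of the small subunit, had 73.8, 79 and 71.1 CPM in WT sucrose, against 44.1, 43.7 and 38.1 CPM in WT glucose (log2 0.83 ± 0.13, adjusted p = 0.0102). RSM10 (log2 0.95, adjusted p = 0.0295) and MRP17 (log2 0.85, adjusted p = 0.023), also of the small subunit, moved by like amounts. Messages for this ribosome are known targets of Puf3, an RNA-binding protein that recognises TGTANATA behind the coding sequence. The 30 bases around the first such match after the stop codon are printed for these 4 genes, from the R64 reference and on the gene strand, with the match in capitals.
MRPL39 (chrXIII:251207-251236, minus): ttcatttatccTGTAAATAagtaatggata
RSM10 (chrIV:540462-540491, plus): gatttcgtactTGTAAATAaaataggtgaa
MRP17 (chrXI:437038-437067, minus): ctacaaacacaTGTAAATAcatacatatct
MRP1 (chrIV:1170183-1170212, plus): ttggtagtctcTGTAAATAtataaagtcaa

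The letters TGTANATA were present on the gene strand within 300 bases after the stop codon in all 79 mitochondrial ribosomal protein genes, against 16.6% of all 5749 tested genes with such a window. They were present in 43.6% of the genes called higher and in 6.45% of those called lower. Outside that ribosome, 875 tested genes held the letters. Of these, 39 were called higher, or 4.46%, and their median log2 fold change was 0.15. Of the 4795 other genes without the letters, 97 were called higher, or 2.02%, with a median of 0.02. The medians were 0.12 and -0.03 without WT sucrose 2. The motif was looked at after values of these genes were known. PUF3 itself, named for the same reason, had 64.6, 77.4 and 54.2 CPM in WT sucrose, against 46.6, 36 and 39.3 CPM in WT glucose (log2 0.69 ± 0.16, edgeR adjusted p = 0.0431; 0.118 without WT sucrose 2).

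**Figure D3:**
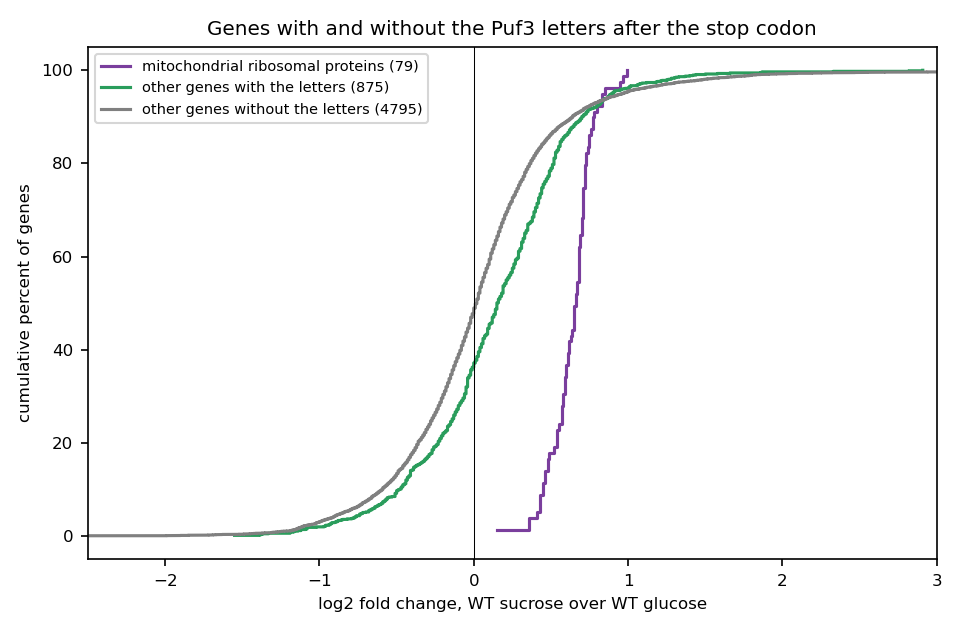
Cumulative percent of genes against log2 fold change of WT sucrose over WT glucose, for 79 mitochondrial ribosomal protein genes, 875 other genes with TGTANATA within 300 bases after the stop codon and 4795 genes without it. The first curve lies wholly above 0; the second lies a little to the right of the third, with medians of 0.15 and 0.02.

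The word stem for mitochondria stood in the RefSeq product or note of 58.1% of 172 genes called higher, list members included, 3.23% of 31 called lower and 15.1% of 5754 tested. Of the genes called higher, 100 belonged to none of the lists, and the following were chosen from them after their values were seen. Factors that assemble cytochrome c oxidase were among them: PET100 (log2 0.87), PET117 (0.79), PET191 (0.71), COA1 (0.88), COA3 (1.08), CMC1 (0.61), CMC2 (0.89) and MSS51 (0.73). Other such factors were not called, such as COX10 (log2 0.15), COA2 (0.35), COA4 (0.39) and COX16 (0.53), and the class was not counted as a list. Carriers of the inner membrane were also among the called genes: ODC1 for oxodicarboxylates (log2 1.91), DIC1 for dicarboxylates (1.24), PET9 for ADP and ATP (1.0) and MIR1 for phosphate (0.85). Other such carriers were not called, such as AAC3 (log2 -0.42), AGC1 (0.12), GGC1 (0.22), FLX1 (0.25) and CTP1 (0.28). The carriers were not counted as a list either. CYC3, which attaches heme to cytochrome c, had 183, 190 and 225 CPM in WT sucrose, against 83.9, 88.9 and 85.8 CPM in WT glucose (log2 1.21 ± 0.12, edgeR adjusted p = 0.00232). MIC19, of the complex that shapes the inner membrane, had 58.6, 63.4 and 59.5 CPM in WT sucrose, against 32.7, 33.1 and 32.6 CPM in WT glucose (log2 0.88 ± 0.11, adjusted p = 0.00596). Both had less spread than SUC2 or JEN1 and were called whichever library was left out. PDH1, a mitochondrial enzyme that breaks down methylcitrate from propionate, had 230, 72.1 and 83 CPM in WT sucrose, against 13.6, 17.4 and 14.9 CPM in WT glucose (log2 3.07 ± 0.47, adjusted p = 0.0102).

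Stress and stationary-phase genes rose in part, and WT sucrose 2 weighed on them. Of 38 genes of the Msn2 and Msn4 stress list, 5, or 13.2% against 2.91% of all genes tested, were called higher and 0 lower, with a median log2 fold change of 1.05 that was 0.48 without WT sucrose 2. The list took 1.99, 3.53 and 1.1% of counts in WT sucrose, against 1.24, 0.753 and 0.89% in WT glucose. PRX1, a mitochondrial peroxiredoxin, had 342, 410 and 267 CPM in WT sucrose, against 97.5, 66 and 74.9 CPM in WT glucose (log2 2.09 ± 0.30, edgeR adjusted p = 0.00928). PAI3, an inhibitor of the vacuolar protease Pep4, had 96.8, 114 and 53.2 CPM in WT sucrose, against 24.8, 16.2 and 16.8 CPM in WT glucose (log2 2.19, adjusted p = 0.0182). The desiccation proteins SIP18 and GRE1 rose by 2.39 and 1.19, and lost their calls in 5 and 9 of the 12 fits that left out 1 library. HSP12, a membrane-protecting small heat shock protein, had 2319, 1724 and 517 CPM in WT sucrose, against 254, 152 and 139 CPM in WT glucose, with an adjusted p of 0.0515. CTT1, the cytosolic catalase, had 12.5, 71.4 and 11.5 CPM in WT sucrose, against 88, 16.1 and 23.7 CPM in WT glucose. WT sucrose 2 and WT glucose 1 were the high libraries of their groups, and the groups overlapped.

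The list of respiratory adaptation and stationary-phase genes split, with 3 of 23 called higher and 2 called lower. These are 13% and 8.7%, against 2.91% and 0.526% of all genes tested. RGI2, a protein of energy metabolism under respiration, had 75.6, 394 and 48.8 CPM in WT sucrose, against 6.18, 1.22 and 0.669 CPM in WT glucose. It had the largest increase of all calls (log2 6.0 ± 1.31, edgeR adjusted p = 0.0319) and a wide spread, and without WT sucrose 2 its log2 fold change was 4.52 (adjusted p = 0.0648), and without WT glucose 1 it was 7.52 (adjusted p = 0.0588). YLR012C, a gene of unknown function among the 10 largest increases, had only 2.21, 14.6 and 3.17 CPM in WT sucrose, against 0.772, 0.243 and 0.491 CPM in WT glucose (log2 3.71 ± 0.85, adjusted p = 0.038). Without WT sucrose 2 its log2 fold change was 2.40 (adjusted p = 0.0959), and it lost its call in 8 of the 12 fits that left out 1 library. SPG4 (308, 593 and 52.3 CPM in WT sucrose, against 24.4, 4.72 and 7.58 CPM in WT glucose) also lost its call without WT sucrose 2 (log2 3.87 against 4.70, adjusted p = 0.094) and without WT glucose 1 (log2 5.69, adjusted p = 0.0591). FMP48, a mitochondrial protein kinase homologue on chromosome VII, went the other way, with 29.1, 26.6 and 19 CPM in WT sucrose, against 147, 90.1 and 114 CPM in WT glucose. It fell by 2.23 on the log2 scale (SE 0.23; adjusted p = 0.00232) and was called whichever library was left out. SPG3 fell by 1.31 and lost its call in 9 of the 12 fits that left out 1 library. Trehalose and glycogen genes gave 0 calls of 22 in edgeR, against 2.91% higher and 0.526% lower of all genes tested. Their median of 0.34 was -0.57 without WT sucrose 2.

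**Figure D4:**
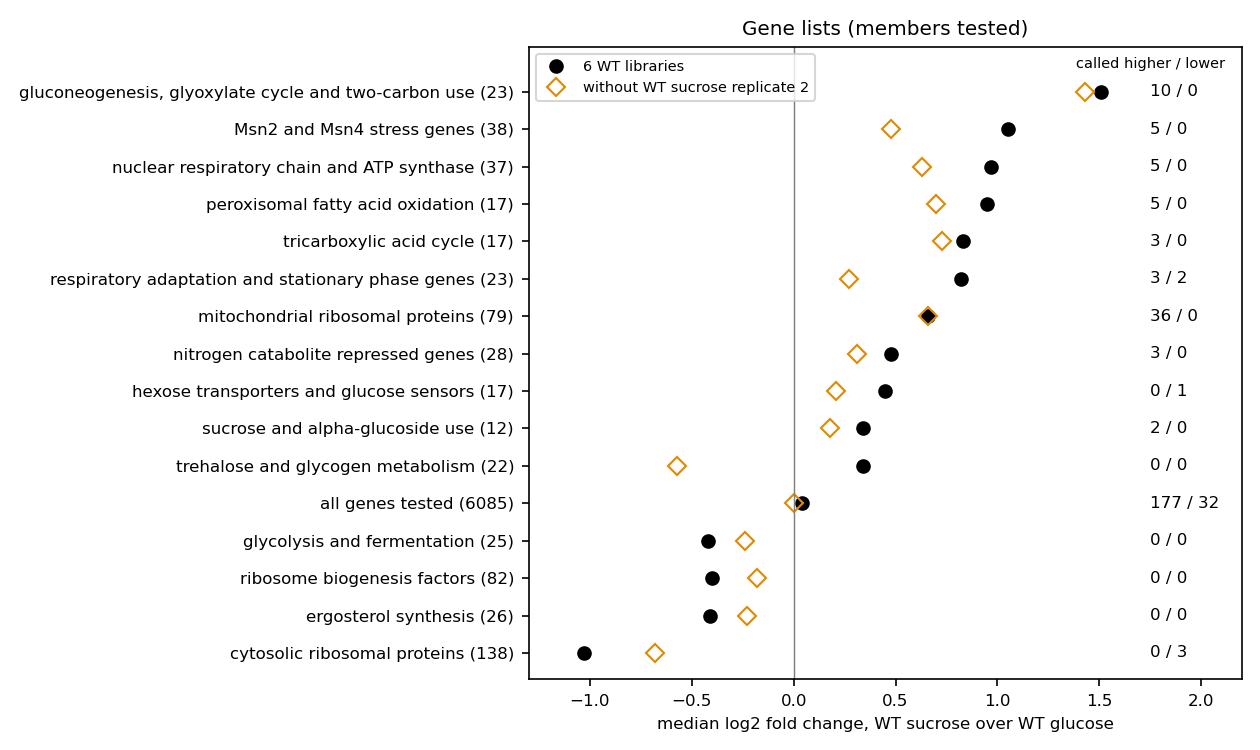
Median log2 fold change of WT sucrose over WT glucose for 15 gene lists and for all genes tested, with all WT libraries (black) and without WT sucrose replicate 2 (open diamonds); the number of members tested is in brackets and the calls higher and lower stand at the right. The mitochondrial ribosome stays at 0.66, while trehalose and glycogen genes change from 0.34 to -0.57 and cytosolic ribosomal proteins from -1.03 to -0.68.

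Genes of protein synthesis in the cytosol lay on the other side of 0. Of 138 cytosolic ribosomal protein genes, 3 were called lower and 0 higher, so the share called, 2.17%, compares with 0.526% of all genes tested. Yet 131 of them had a log2 fold change below 0, against 2761 of all 6085 genes tested. The groups stood apart downwards in 115, or 83.3%, against 12.1% of all genes. The median was -1.03, and -0.68 without WT sucrose 2. Their mRNAs took 9.69, 4.1 and 11.3% of counts in WT sucrose, against 17.6, 14.3 and 16.6% in WT glucose. RPL9A had 352, 156 and 460 CPM in WT sucrose, against 1275, 903 and 968 CPM in WT glucose (log2 -1.70 ± 0.41, edgeR adjusted p = 0.0442; 0.0879 without WT sucrose 2). It shares reads with its near copy RPL9B, which had 410, 119 and 347 CPM in WT sucrose, against 416, 299 and 367 CPM in WT glucose. RPS29A, which has a near copy in RPS29B, had a log2 fold change of -1.13 (adjusted p = 0.023) and RPL29 had -1.12 (adjusted p = 0.0403). RPL9A and RPL29 each lost their call in 9 of the 12 fits that left out 1 library, and RPS29A in 4. With the 6 WT libraries alone 0 ribosomal protein genes were called by edgeR. DESeq2 on the 12 called 32 lower, against 193 of the 6789 genes it tested. Ribosome biogenesis factors gave 0 calls of 82 in edgeR, against 2.91% higher and 0.526% lower of all genes tested, and 2 lower in DESeq2. Their median was -0.40, and -0.18 without WT sucrose 2.

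**Figure D5:**
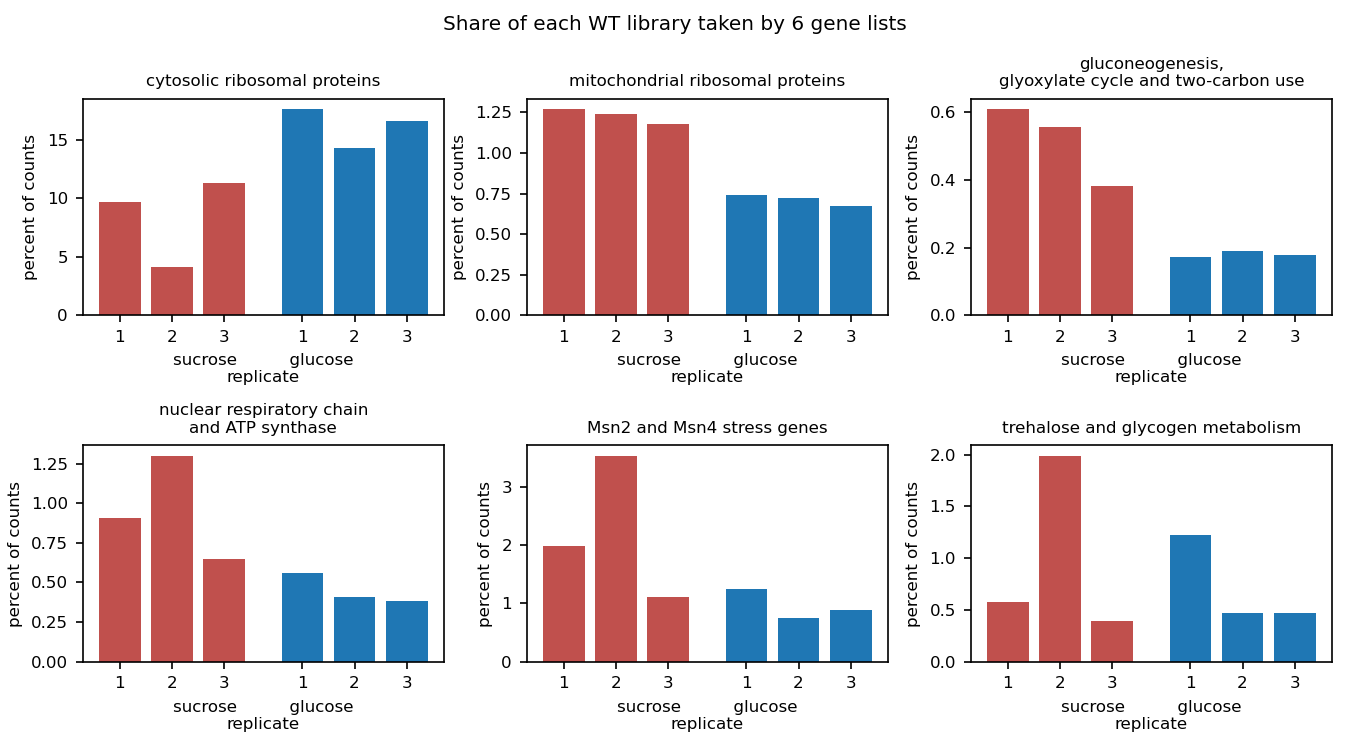
Percent of counts taken by 6 gene lists in each WT library, with the 3 sucrose libraries in red at the left and the 3 glucose libraries in blue at the right. Mitochondrial ribosomal proteins are at 1.18 to 1.27% in sucrose and 0.672 to 0.74% in glucose, while WT sucrose 2 is low for cytosolic ribosomal proteins and high for stress genes and for trehalose and glycogen genes.

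Glycolysis and fermentation gave 0 calls of 25 in edgeR, against 2.91% higher and 0.526% lower of all genes tested, with a median of -0.42. DESeq2 called 2 of the list higher and 3 lower, against 341 and 193 of the 6789 genes it tested. The pyruvate kinase gene CDC19 had 431, 221 and 320 CPM in WT sucrose, against 957, 706 and 671 CPM in WT glucose (log2 -1.26, edgeR adjusted p = 0.077). Nitrogen metabolism held several well replicated increases. GDH2, which releases ammonium from glutamate, had 274, 281 and 218 CPM in WT sucrose, against 77.5, 64.4 and 65.6 CPM in WT glucose (log2 1.90 ± 0.30, adjusted p = 0.0102). CAR2, of arginine breakdown, had 47.7, 56.3 and 42.5 CPM in WT sucrose, against 16.9, 11.9 and 13.6 CPM in WT glucose (log2 1.79 ± 0.24, adjusted p = 0.00809). With GDH3 (log2 1.16), they were the 3 of 28 nitrogen catabolite repressed genes called higher, or 10.7% against 2.91% of all genes tested, and 0 were lower. Among 48 genes of amino acid synthesis under Gcn4, 2 were called higher, or 4.17%, near the 2.91% of all genes, and 0 lower, and the median log2 fold change was -0.07. The 2 were BAT2 (log2 1.44), a branched-chain transaminase, and LEU4 (log2 1.14), of leucine synthesis, which has a near copy in LEU9. REE1, known to affect the enolase Eno1, had 224, 346 and 382 CPM in WT sucrose, against 54.9, 85.8 and 91.2 CPM in WT glucose (log2 2.04 ± 0.24, adjusted p = 0.00413).

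Single members were called in several other lists. These lists had 20 to 32 tested members, so 1 call made 3.12 to 5% of a list. Over all genes tested, 2.91% were called higher and 0.526% lower, and 1 call is not a result about its list. PDE2, the phosphodiesterase that degrades cAMP and so lowers protein kinase A activity, had 37.6, 81.9 and 44.3 CPM in WT sucrose, against 20.4, 19.4 and 19.1 CPM in WT glucose (log2 1.47, edgeR adjusted p = 0.0388; 0.11 without WT sucrose 2). OPI3, of phosphatidylcholine synthesis, rose by 1.12, and ATG33, a protein of mitophagy, by 0.81. Lower in sucrose were PHO3, a secreted acid phosphatase with near copies (log2 -1.78, adjusted p = 0.0119), and GAS3, a cell wall protein (log2 -1.18, adjusted p = 0.023). SST2, which dampens the pheromone signal, fell by 0.93, and SWI5, a cell cycle transcription factor, by 0.90. The genes SHO1, an osmosensor, DUN1, a DNA damage checkpoint kinase, and RNH203, a subunit of RNase H2, are in none of the lists and were among the largest decreases, with log2 fold changes of -1.12, -1.12 and -1.10. In each of these genes the sucrose and glucose groups stood apart. Of the 12 fits that left out 1 library, 8 lost the call of PDE2 and 8 that of SST2. RNH203 lost its call in 6, and ATG33, GAS3, SWI5, SHO1 and DUN1 in 5 each. OPI3 lost its call in 4 and PHO3 in 3. The other 19 of the 38 lists held no call in edgeR. They include the galactose regulon, proteasome, iron uptake, sulfate assimilation, ergosterol synthesis, histones, the a-specific genes and the subunits of the Rpd3L and Rpd3S complexes, and RPD3 itself had 129, 133 and 103 CPM in WT sucrose, against 136, 102 and 90.7 CPM in WT glucose.

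The WT response did not differ detectably from that of the Rpd3-2SA strain. The contrast of the 2 responses gave 0 calls, or 0% of the 6085 genes, in edgeR, with 10 genes at an unadjusted p under 0.05, and 0 calls in DESeq2, with 14 such genes. Same-numbered WT and Rpd3-2SA libraries in the same sugar deviated together (r across genes from 0.545 to 0.847), so the fit was repeated with a block for each sugar and number. It gave 0 calls and 302 genes at an unadjusted p under 0.05, where 304 would be expected by chance. In the mutant alone, sucrose over glucose gave 98 genes higher, or 1.61%, and 17 lower, or 0.279%. Of the WT calls, 94 of 177 and 10 of 32 were also called there, and all 177 and 32 had the same sign. Same-numbered libraries of the 2 strains deviated together and shared 1 estimate of spread, so this overlap is not an independent check. CRC1 had a log2 fold change of 3.30 in WT and 3.29 in Rpd3-2SA, with a difference of 0.01 ± 0.44 (SE). For SUC2 these were 4.2 and 3.18, with a difference of 1.02 ± 0.83 (SE) that was not called. The mitochondrial ribosomal list had a median of 0.66 in WT and 0.58 in Rpd3-2SA, and cytosolic ribosomal proteins had -1.03 and -0.75.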

How the data were processed

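The authors deposited 1 table of raw read counts, whole numbers with no normalization, for 7127 features in 12 libraries. Bowtie 0.12.2 and sacCer3 are named for the alignment in the submitters' processing notes. The counting program, its strand setting and how it treated reads with several matches were not stated in the labels or the file. Overlapping genes and near copies (80% identity over 100 bases in BLAST+ 2.17.0) are therefore uncertain. Sample titles gave the groups and replicate numbers, and the series' design describes biological replicates.

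All 12 libraries entered 1 quasi-likelihood fit in edgeR 4.0.16 (R 4.3.3) with a mean for each group, which leaves 8 residual degrees of freedom. TMM factors ran from 0.922 to 1.11. After filterByExpr with its usual minimum of 10 counts, 6085 features were tested and 1042 were not. The thresholds on fold and adjusted p are those of the series' design. Because same-numbered WT and Rpd3-2SA libraries deviate together, 8 degrees of freedom may overstate what is known of the spread. DESeq2 1.42.0 and other settings were alternatives. Library totals ran from 20775911 to 25360037, and no 2 replicates agreed within counting noise (chi-square per degree of freedom at least 87.4). The scripts were tested on simulated data in which each library was drawn on its own. Such data lack the shared deviation of same-numbered libraries, so the test does not show how many calls here are false.

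The genes and lists were chosen with earlier results of these data known. The lists of ribosomal proteins were corrected by RefSeq product after values were seen. Named genes are the 10 largest increases and 10 largest decreases among called genes whose groups did not overlap and whose higher mean was at least 5 CPM, up to 4 called members of each list (or the 2 lowest p where fewer than 2 were called), and a fixed set of carbon, stress and marker genes. Genes named beyond that rule were chosen after their values were seen, also where this is not said beside them. They include CAT2, YAT2, ALD4, ACS1, PYC1, MDH3, ATP5 and REE1. Symbols, products and sequences come from RefSeq R64, whose starts match the table for 99.9% of 6047 matched features.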

Additional observations from a re-analysis of the deposited data

How the results depend on the processing

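None of the 50 named genes that were called changed direction under any alternative run. The counts of calls higher and lower were 306 and 30 with library totals in place of TMM, which moved the median of all genes to 0.18 on the log2 scale, 341 and 193 with DESeq2, 9 and 1 with the 6 WT libraries, and 14 and 1 when edgeR tested against the fold threshold itself. Leaving out 1 library gave 10 to 256 higher and 1 to 170 lower. Leaving out number 1, 2 or 3 in all 4 groups gave 2, 0 and 4 higher and 0 lower each time. Deviations of same-numbered WT sucrose and WT glucose libraries correlated at 0.359, -0.0948 and 0.479. Those of differently numbered libraries correlated at -0.588 to 0.342. These values do not settle whether the replicate numbers pair the 2 sugars. With the replicate block the counts were 363 and 273 over 12 libraries and 0 and 0 over the 6 WT libraries. The contrast of WT and Rpd3-2SA responses stayed at 0 calls in every fit run. RLE factors, no filter and no fold threshold kept counts within 1.5 times of 177 and 32.

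Of the 69 named genes without a call, 12 changed sign. Over the fits that left out 1 library, the log2 fold change ran from -0.66 to 0.89 for MAL11, -0.01 to 0.58 for HXT2, -0.18 to 0.48 for MIG1, -0.76 to 0.19 for MTH1, -0.28 to 0.73 for SNF3, -0.13 to 0.25 for RGT2, -0.14 to 1.09 for CAT8, -0.73 to 0.32 for HAP4, -1.83 to 0.68 for CTT1, -0.26 to 0.16 for PHO84 and -0.26 to 0.12 for HIS3. The negative values of MAL11, HXT2, MIG1, SNF3, RGT2 and CAT8 came without WT sucrose 2. Without number 2 in all 4 groups the values were MAL11 -0.86, HXT2 -0.07, HXT4 -0.04, MIG1 -0.19, SNF3 -0.31, RGT2 -0.06, CAT8 -0.33, PHO84 0.18 and HIS3 0.04. Without number 1 they were MTH1 0.14 and CTT1 1.06, and without number 3 HXT4 had -0.32. With library totals PHO84 had 0.08 and HIS3 0.02. The cause was not tested.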
